A study of Mus musculus with 12 samples.

Results

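Chaperones help other proteins fold, and cochaperones steer them, so the RNA of 44 such genes was followed across mouse spleens. The 44 are the chaperones, cochaperones and chaperonin subunits of a fixed list of symbols that leaves out the main heat-inducible chaperones. All 44 were among the 19376 rows of the gene table, and all 44 passed the filter on low counts, as did 15079 genes in all. Spleen RNA was sequenced in 12 libraries, 3 in each of 4 groups. The controls had no treatment. The AOS group received alginate oligosaccharides, short sugar chains cut from the brown-algal polymer alginate, at 10 mg/kg over 5 weeks. The busulfan group received the alkylating drug busulfan at 40 mg/kg in a single dose. The last group had the same single dose of busulfan and afterwards AOS at 10 mg/kg over 5 weeks. The strain is given as IRC for every library, and no age or sex is given. The busulfan libraries carry a sample code with an extra letter compared with the series description, and they were taken as busulfan without AOS. The time between busulfan and collection is not given in the sources used here. Nothing states whether replicate libraries stem from different mice, so each p-value measures the spread between these libraries, which may be technical.

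Chaperones bind unfolded stretches of protein, keep them from clumping and release them to fold, usually in cycles driven by ATP. HSP70 proteins are loaded with clients by J proteins, which carry the DnaJ domain, and are reset by nucleotide exchange factors. HSP90 takes over clients such as kinases and steroid receptors with the help of cochaperones, while the ring-shaped chaperonins TRiC in the cytosol and HSP60 in mitochondria fold proteins inside a chamber. The endoplasmic reticulum (ER) has its own HSP70, HSP90 and J proteins, which serve secreted proteins and are in high demand in the antibody-secreting plasma cells of the spleen. Heat shock factor 1 drives many cytosolic chaperone genes through heat shock elements in their promoters, and the unfolded protein response drives the ER set through other elements.

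Levels are given as CPM, counts scaled to a common library size, with TMM factors applied. A log2 fold change is given with its standard error (SE), and a gene was called at a Benjamini-Hochberg adjusted p under 0.05 over all 15079 genes in edgeR's quasi-likelihood test. Called refers to edgeR unless DESeq2, a second count test that called more genes in every comparison, is named. The libraries held 15051300 to 16241884 counts each, and the 44 genes took 0.796% to 1.26% of them. Markers of B cells, T cells and red pulp macrophages were present in every library. The source of the RNA is given as spleen, while the tissue field reads only cells. Digestive enzyme markers of the pancreas summed to 1132 to 15335 CPM in the AOS libraries and 15.1 to 931 CPM in the other 9. Fat cell markers summed to 63.9 CPM at most in the controls and 10.4 CPM at most elsewhere. Results are therefore also given without the AOS library highest in the first set and the control highest in the second (AOS 2 and control 1).

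Per transcript length the genes spanned a wide range. The level in FPKM, averaged over the 12 libraries, was highest for Hsp90ab1 at 737 ± 200 (SD), followed by Hsp90b1 at 338 ± 50.3, Hspa5 at 265 ± 36.1 and Hspd1 at 177 ± 46.3. The next in order, Cct5 at 168 ± 13.6, lay within the spread of Hspd1. Dnajb14, an ER membrane J protein, was the lowest at 4.29 ± 0.479 FPKM. The heat map of all members shows where these levels moved between libraries.

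**Figure D1:**
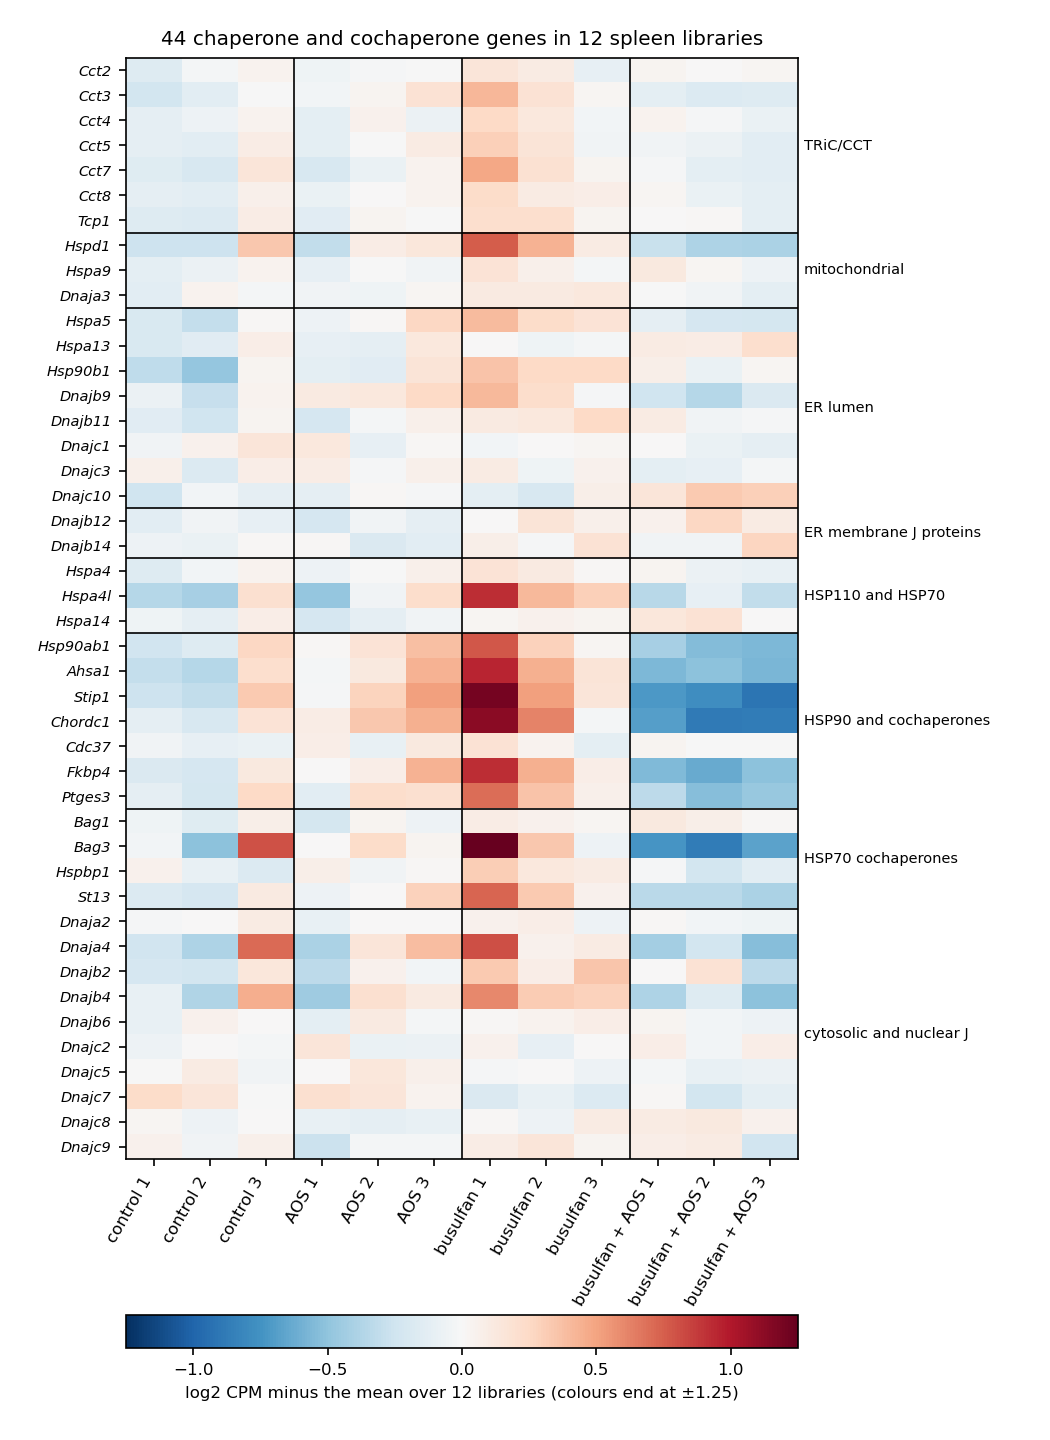
Level of the 44 genes (rows, by role) in the 12 libraries (columns, by group), as log2 CPM minus the gene's mean over the libraries. HSP90, most of its cochaperones, Bag3 and St13 are low in all 3 libraries of busulfan with AOS and highest in busulfan 1, whereas the chaperonin and most J protein rows stay close to their means.

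The question of the design is what each agent left in the spleen and whether AOS altered the state after busulfan. The clearest change was in spleens that had both agents. Against busulfan alone, 9 of the 44 genes fell and 0 rose. Over all genes tested, 3.02% were called in this comparison, 1.5% lower and 1.53% higher. The 9 were Chordc1, Stip1, Fkbp4, Ahsa1, Ptges3, Hsp90ab1, St13, Dnajb9 and Hspa5. Against AOS alone, 3 fell and 0 rose (Chordc1, Stip1 and Fkbp4), where 5.81% of all genes were called, 3.45% lower and 2.36% higher. For busulfan against control, 0 of 44 were called, where 0.471% of all genes were. At an unadjusted p under 0.05, 21 were higher and 1 lower in that comparison, against 20.6% of all genes in either direction. For AOS against control, 0 of 44 were called, as were 0% of all genes. Dnajb9 alone had an unadjusted p under 0.05 there, where 5.93% of all genes did.

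DESeq2 called more members, and some of them rose. Against busulfan it called 15 lower and 1 higher (Dnajc10), where it called 4.03% and 3.65% of all genes. The 7 that only DESeq2 called there were Hspd1, Bag3, Hspa4l, Dnajb4, Cct3 and Hspbp1, all lower, and Dnajc10. Against AOS it called 8 lower and 4 higher (Dnajc10, Dnajb12, Hspa14 and Dnajc8), where 6.59% and 5.17% of all genes were. For busulfan against control it called 9 higher and 1 lower (Dnajc7), where 2.57% and 3.55% of all genes were. The 9 were Stip1, Chordc1, Ahsa1, Fkbp4, St13, Hspa4l, Cct3, Hspa5 and Hsp90b1. For AOS against control it called 0 of 44, where 0.358% of all genes were higher and 0.106% lower.

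The groups were also compared by overlap, counting a gene where every library on one side lay beyond all those on the other. Against busulfan, 23 of the 44 lay lower and 2 higher after both agents, where 12.9% of all genes lay lower and 14.3% higher. At an unadjusted p under 0.05, 20 were lower and 1 higher there, where 21.2% of all genes passed in either direction. Against AOS, 14 lay lower and 5 higher, where 17% and 14.6% of all genes did, and 11 lower and 4 higher had an unadjusted p under 0.05, where 25.6% of all genes did in either direction. For busulfan against control, 9 lay higher and 1 lower, where 11% and 12.6% of all genes did. For AOS against control, 1 lay higher (Dnajb9) and 1 lower (Dnajc8), where 5.63% and 5.19% of all genes did.

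The median log2 fold change over the 44 was 0.19 for busulfan against control, 0.040 for AOS against control, -0.18 for busulfan with AOS against busulfan and -0.046 for busulfan with AOS against AOS. The median over all genes lay between -0.0063 and 0.0041 in these comparisons. Without any 1 of its 3 libraries, 0 members were called against busulfan and 0 against AOS. Without busulfan 1, 2 were called against busulfan. Without control 1 and AOS 2 together, 3 were called against busulfan (Chordc1, Stip1 and Fkbp4) and 0 against AOS. A fit to only the 6 libraries compared called 0 against busulfan and 7 against AOS. In all these fits, the fold changes of the called members kept their sign.

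**Figure D2:**
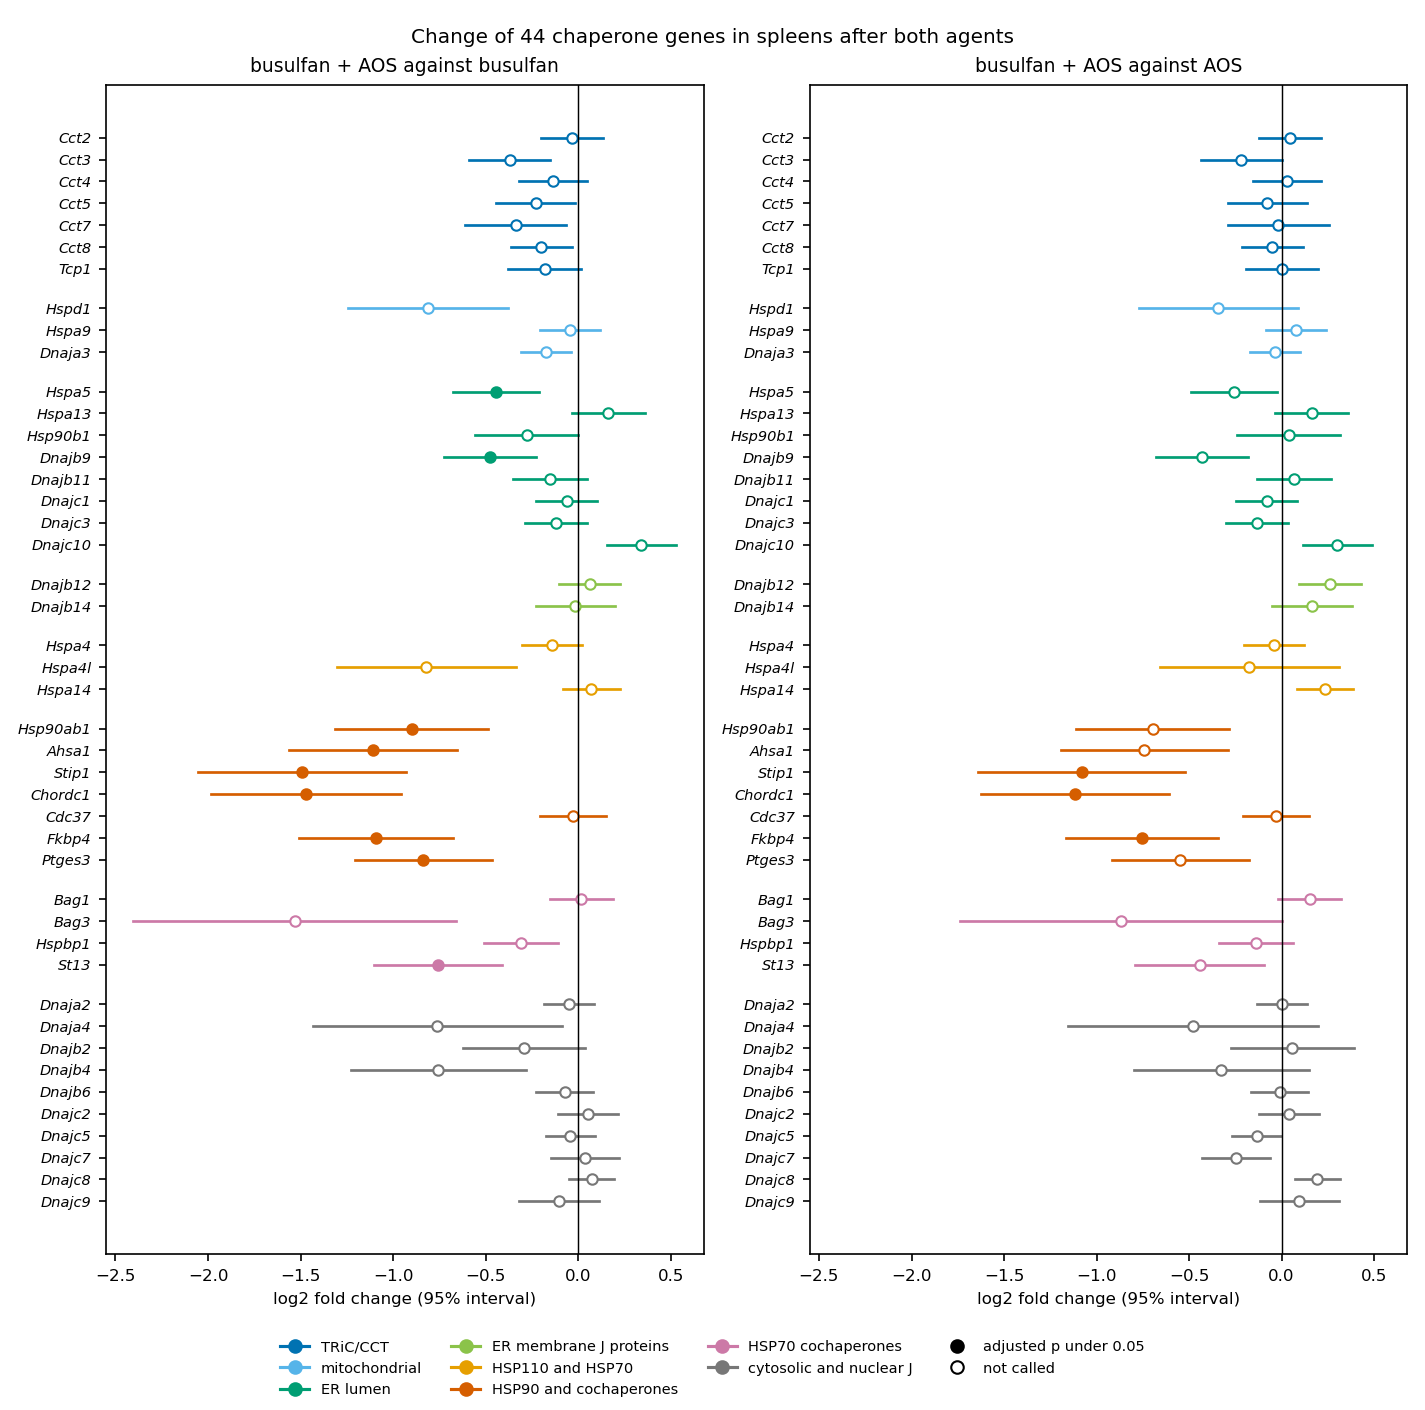
Log2 fold change of each of the 44 genes with its 95% interval for busulfan with AOS against busulfan (left) and against AOS (right), coloured by role. Filled points are the called genes, 9 on the left and 3 on the right, and all of them lie below 0.

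The HSP90 machine carried most of the called genes. Of its 7 members, 6 fell after busulfan with AOS against busulfan, with a median log2 fold change of -1.09 over the 7. In each of the 6, the 3 libraries given both agents lay below all 9 other libraries. The remaining member was Cdc37. For busulfan against control the median over the 7 was 0.61, and 6 were higher at an unadjusted p under 0.05. Of all genes, 20.6% passed there in either direction. EdgeR called 0 of the 7 in that comparison, and 0 lay higher without overlap. DESeq2 called 4 of them higher, where it called 2.57% of all genes higher. The falls against busulfan are thus measured from a group in which these estimates were raised.

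Chordc1 encodes an HSP90-binding protein with zinc-binding CHORD domains. Its level was 115, 108 and 140 CPM in the controls, 132, 157 and 169 with AOS, 271, 191 and 122 after busulfan and 76.6, 67.0 and 67.5 after busulfan with AOS. The group given both agents was the lowest and the most even, and the busulfan group spread the widest, from 122 to 271 CPM. Against busulfan the log2 fold change was -1.47 ± 0.23 (adjusted p = 0.0134). Against AOS it was -1.12 ± 0.23 (adjusted p = 0.0253).

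Stip1 encodes HOP, which joins HSP70 to HSP90 so that clients can pass between them. Its level was 204, 198 and 307 CPM in the controls, 243, 297 and 350 with AOS, 563, 348 and 273 after busulfan and 148, 142 and 130 after busulfan with AOS. All 3 libraries given both agents lay under the lowest control. Stip1 had a log2 fold change of -1.49 ± 0.26 against busulfan (adjusted p = 0.0190) and -1.08 ± 0.25 against AOS (adjusted p = 0.0376).

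Fkbp4 encodes FKBP52, an immunophilin of steroid receptor complexes. It stood at 137, 134 and 168 CPM in the controls, 156, 165 and 209 with AOS, 294, 211 and 165 after busulfan and 106, 100 and 108 after busulfan with AOS. Busulfan 1 was again the highest library, and busulfan 3 lay among the AOS values. Fkbp4 had a log2 fold change of -1.09 ± 0.19 against busulfan (adjusted p = 0.0190) and -0.76 ± 0.19 against AOS (adjusted p = 0.0437).

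Ahsa1 encodes AHA1, the activator of the HSP90 ATPase. It stood at 108, 103 and 153 CPM in the controls, 130, 144 and 179 with AOS, 256, 180 and 148 after busulfan and 89.5, 92.6 and 88.7 after busulfan with AOS. The 3 libraries given both agents lay close together and below the lowest control. Ahsa1 had a log2 fold change of -1.11 ± 0.21 against busulfan (adjusted p = 0.0237), and against AOS it was -0.74 ± 0.21 (adjusted p = 0.0589, not called, and 0.00746 by DESeq2).

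Ptges3 encodes p23, which stabilises the client-bound form of HSP90. Its level was 199, 184 and 256 CPM in the controls, 196, 251 and 247 with AOS, 349, 275 and 225 after busulfan and 171, 149 and 155 after busulfan with AOS. The values after both agents lay below all others, although AOS 1 and control 2 came close to them. It fell against busulfan by a log2 fold change of -0.84 ± 0.17 (adjusted p = 0.0296).

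Hsp90ab1 encodes the constitutive cytosolic HSP90 itself. Its level was 1434, 1515 and 2032 CPM in the controls, 1712, 1908 and 2204 with AOS, 2907, 2070 and 1726 after busulfan and 1273, 1167 and 1153 after busulfan with AOS. The log2 fold change was -0.90 ± 0.19 against busulfan (adjusted p = 0.0327) and -0.70 ± 0.19 against AOS (adjusted p = 0.0543, not called, and 0.00458 by DESeq2). Cdc37, which brings protein kinases to HSP90, was at 133 to 164 CPM after busulfan and 145 to 148 CPM after both agents. Its log2 fold change was -0.03 with a 95% interval of -0.21 to 0.15, which lies above the point estimate of each of the other 6.

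**Figure D3:**
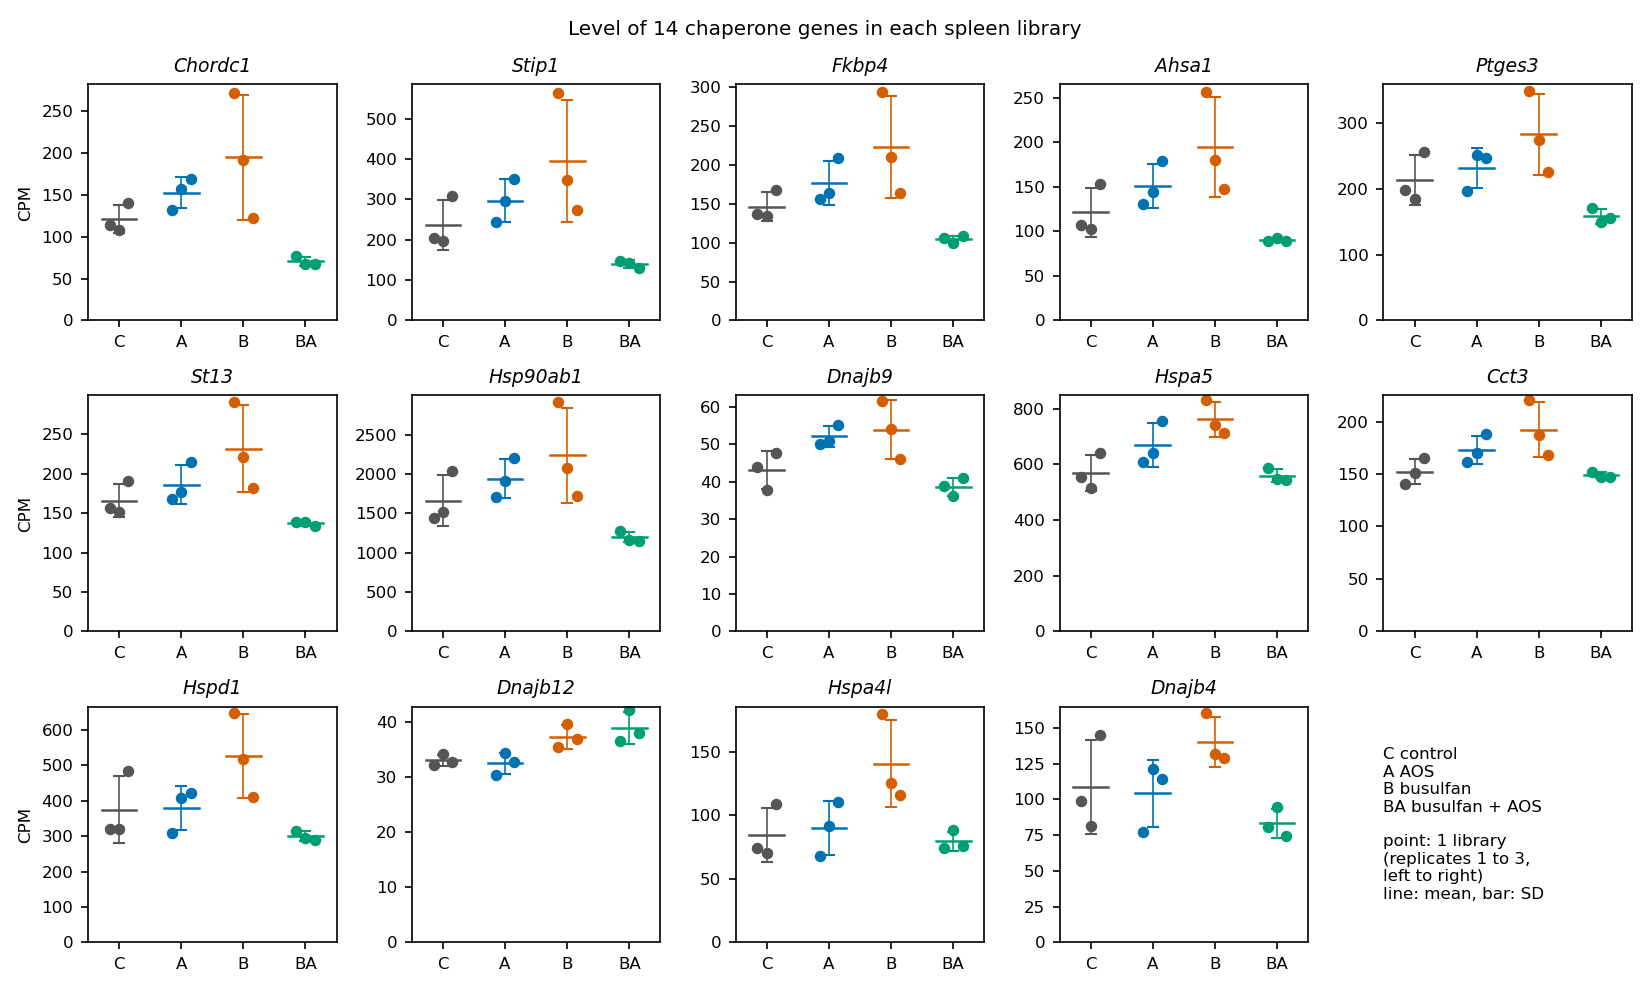
CPM of 14 chaperone genes in each library (points), with the group mean (line) and SD (bar). The first 9 panels are the called genes, in which the 3 points of busulfan with AOS lie below those of busulfan, and the others are the gene with the smallest p in each role group without a called member.

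Promoter sequences were taken from RefSeq on GRCm38.p6 for 37 of the 44 genes, each from 250 bases before to 50 after the annotated start. A heat shock element, the site of heat shock factor 1, was searched on both strands as GAA, TTC and GAA with any 2 bases between neighbours. An exact match was found in 3 of 37 genes, against 0.662% of the 27025 genes with a window. These 3 promoters are shown from 250 bases before the start to 20 bases after it, for Dnajb6 at the first of its annotated starts, on the strand of the gene, with the matched bases in capitals.
Chordc1, chr9:18292017-18292286, plus strand: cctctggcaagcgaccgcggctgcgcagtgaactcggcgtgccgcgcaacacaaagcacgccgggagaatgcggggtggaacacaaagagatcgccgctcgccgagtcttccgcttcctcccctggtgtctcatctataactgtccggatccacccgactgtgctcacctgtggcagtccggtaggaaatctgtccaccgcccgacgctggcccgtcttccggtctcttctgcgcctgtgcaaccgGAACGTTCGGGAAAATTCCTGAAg
Hspd1, chr1:55087913-55088182, minus strand: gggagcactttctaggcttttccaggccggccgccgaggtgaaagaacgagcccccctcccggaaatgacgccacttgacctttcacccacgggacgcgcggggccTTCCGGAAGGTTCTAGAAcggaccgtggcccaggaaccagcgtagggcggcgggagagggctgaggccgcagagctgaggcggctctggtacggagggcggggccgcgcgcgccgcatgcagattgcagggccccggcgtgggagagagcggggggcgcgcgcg
Dnajb6, chr5:29735648-29735917, plus strand: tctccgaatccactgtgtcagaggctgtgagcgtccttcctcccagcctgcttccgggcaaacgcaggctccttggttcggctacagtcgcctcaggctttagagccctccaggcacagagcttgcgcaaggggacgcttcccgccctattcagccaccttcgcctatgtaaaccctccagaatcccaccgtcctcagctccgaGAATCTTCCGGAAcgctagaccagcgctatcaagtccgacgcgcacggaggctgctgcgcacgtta
The run in Chordc1 holds 3 overlapping matches and spans the annotated start. The run in Hspd1 holds 2 overlapping matches and also lies in the window of Hspe1, the HSP10 gene on the other strand. The start used for Hspd1 is an internal one. Its printed stretch lies inside the annotated gene, which begins at 55088243 on its strand. With 1 of the 9 fixed letters allowed to differ, 12 of 37 members (32.4%) had a match, against 8.15% of all genes. In the HSP90 group 5 of 6 genes with a window matched at that setting (Ahsa1, Chordc1, Cdc37, Fkbp4 and Ptges3). Among members called lower against busulfan the count was 4 of 7, and among those not called it was 8 of 30. Of the 3 genes with an exact match, Chordc1 was called. Hspd1 had -0.81 (edgeR adjusted p = 0.0520, and 0.00178 by DESeq2). Dnajb6 had a log2 fold change of -0.07 with a 95% interval of -0.23 to 0.08. The match describes these letters only, and binding was not measured.

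HSP70 works with exchange factors and binding proteins, and St13 was the called gene among these 4. St13 encodes HIP, which holds HSP70 in its ADP-bound state. Its level was 156, 152 and 190 CPM in the controls, 168, 177 and 214 with AOS, 291, 221 and 182 after busulfan and 139, 139 and 133 after busulfan with AOS. The 3 libraries given both agents were below every other library, and the log2 fold change against busulfan was -0.76 ± 0.16 (adjusted p = 0.0325). Bag3, a stress-inducible exchange factor that routes clients to autophagy, had the largest point estimate of all 44. It stood at 28.4, 20.2 and 51.0 CPM in the controls, 29.1, 34.1 and 29.9 with AOS, 82.6, 36.9 and 27.8 after busulfan and 17.2, 15.6 and 18.1 after busulfan with AOS. Its level after both agents was 17.0 ± 1.23 CPM (SD, n = 3), below all other libraries, but the busulfan group ran from 27.8 to 82.6 CPM. The log2 fold change against busulfan was -1.53 ± 0.40 (adjusted p = 0.0611, not called, and 0.00181 by DESeq2). Hspbp1, another exchange factor, had -0.31 ± 0.09 (adjusted p = 0.0857, not called, and 0.0443 by DESeq2), and Bag1 had 0.02 ± 0.08 with a 95% interval of -0.15 to 0.19.

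Of the 10 J proteins of the cytosol and nucleus, edgeR called 0 in any comparison, and DESeq2 called Dnajb4, Dnajc7 and Dnajc8 in 1 or 2 comparisons. At an unadjusted p under 0.05, 2 of the 10 were lower against busulfan, where 21.2% of all genes passed in either direction. The median log2 fold change against busulfan was -0.061. Those with the largest estimates were Dnaja4 at -0.76 ± 0.31 and Dnajb4 at -0.75 ± 0.22, partners of cytosolic HSP70 (adjusted p = 0.187 and 0.0797). Dnajb4 had the smallest p of the group, and DESeq2 called it against busulfan (adjusted p = 0.0131). It stood at 99.0, 81.6 and 145 CPM in the controls, 77.5, 121 and 114 with AOS, 161, 131 and 129 after busulfan and 81.0, 94.5 and 74.2 after busulfan with AOS. The values after both agents lay below the busulfan values, but they overlapped those of the controls and of AOS. Control 3, at 145 CPM, lay within the busulfan values.

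The other 8 J proteins had estimates from -0.29 (Dnajb2) to 0.07 (Dnajc8) against busulfan. They were Dnaja2, a general HSP70 partner, Dnajb2, known from neurons, and Dnajb6, which keeps polyglutamine proteins from aggregating. The rest were Dnajc2 of the ribosome, Dnajc5 of secretory vesicles, Dnajc7, which binds both HSP70 and HSP90, Dnajc8, found with spliceosomes, and Dnajc9, a histone chaperone. Dnajc7 had the most negative estimate of the 44 for busulfan against control. It stood at 409, 385 and 347 CPM in the controls, 401, 387 and 359 with AOS, 307, 327 and 309 after busulfan and 351, 296 and 320 after both. The 3 busulfan libraries lay below the 3 controls, and the 3 libraries given both agents lay below the 3 with AOS. The log2 fold changes were -0.28 ± 0.08 and -0.24 ± 0.08 (adjusted p = 0.116 and 0.101), so neither was called by edgeR. DESeq2 called both (adjusted p = 0.0236 and 0.0361). Dnajc8 had 0.19 ± 0.06 for both agents against AOS (edgeR adjusted p = 0.0657, and 0.0132 by DESeq2).

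Among the HSP110 and atypical HSP70 proteins, edgeR called 0 of 3 and DESeq2 called Hspa4l and Hspa14. At an unadjusted p under 0.05 edgeR had 1 higher after busulfan against control, 1 lower after both agents against busulfan and 1 higher against AOS. Over all genes, 20.6%, 21.2% and 25.6% passed in either direction in these comparisons. Hspa4l, an HSP110 exchange factor, stood at 74.0, 70.7 and 109 CPM in the controls, 67.7, 91.8 and 111 with AOS, 180, 126 and 116 after busulfan and 74.6, 88.3 and 76.3 after busulfan with AOS. The 3 busulfan libraries lay above the 9 others. Hspa4l had a log2 fold change of 0.74 ± 0.22 for busulfan against control (adjusted p = 0.112) and -0.82 ± 0.22 for both agents against busulfan (adjusted p = 0.0674), neither of them called by edgeR. DESeq2 called both (adjusted p = 0.0221 and 0.00715). Hspa4, the related exchange factor, had -0.14 ± 0.07 against busulfan. Hspa14, an HSP70 found with ribosomes, had 0.23 ± 0.07 for both agents against AOS (adjusted p = 0.0703, not called, and 0.0397 by DESeq2).

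The chaperonin TRiC is a ring of related subunits that folds actin and tubulin, and edgeR called 0 of its 7 subunits here in any comparison, while DESeq2 called Cct3 in 3. At an unadjusted p under 0.05 edgeR had 4 higher after busulfan against control, where 20.6% of all genes passed in either direction. It had 4 lower after both agents against busulfan, where 21.2% of all genes passed. The medians were 0.19 for busulfan against control, -0.20 for both agents against busulfan and -0.017 for both agents against AOS. All 7 estimates were positive in the first comparison and all 7 negative in the second. Cct3 had the smallest p of the subunits. Its level was 141, 151 and 165 CPM in the controls, 162, 170 and 188 with AOS, 221, 188 and 169 after busulfan and 152, 147 and 147 after busulfan with AOS. All 3 busulfan libraries were above the 3 controls, and all 3 given both agents were below the AOS libraries. The log2 fold change against busulfan was -0.37 ± 0.10 (adjusted p = 0.0687), and that for busulfan against control was 0.34 ± 0.10 (adjusted p = 0.111). DESeq2 gave adjusted p values of 0.0134 and 0.0332 for these and 0.0143 for the interaction. The other subunits, Cct2, Cct4, Cct5, Cct7, Cct8 and Tcp1, ran from -0.34 (Cct7) to -0.03 (Cct2) against busulfan. Cct6a, a subunit outside the 44, had -0.39 ± 0.10 (adjusted p = 0.0662). The intervals for AOS against control ran from -0.29 to 0.40 over the 7 subunits.

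In mitochondria, Hspd1, the HSP60 chaperonin, had the largest estimate of the 3 members against busulfan. It stood at 320, 320 and 483 CPM in the controls, 309, 408 and 423 with AOS, 647, 518 and 411 after busulfan and 315, 293 and 290 after busulfan with AOS. The 3 libraries given both agents lay below every other library except AOS 1, at 309 CPM, which fell between them. The log2 fold change against busulfan was -0.81 ± 0.20 (adjusted p = 0.0520, not called by edgeR, and 0.00178 by DESeq2). Hspa9, the mitochondrial HSP70 that pulls in imported proteins, had -0.04 ± 0.07, and Dnaja3, its J protein, had -0.17 ± 0.06. Of 10 further genes for mitochondrial import and proteases, edgeR called 0 in any comparison and DESeq2 called 2 higher against AOS. At an unadjusted p under 0.05, 4 of the 10 were higher against AOS, where 25.6% of all genes passed in either direction. The smallest p values among the 10 were for both agents against AOS, with Pmpcb, which clips import signals, at 0.24 ± 0.07 and the protease Lonp1 at 0.20 ± 0.06 (adjusted p = 0.0592 and 0.0685).

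In the ER lumen, 2 of 8 members fell after both agents against busulfan, with less stable calls than in the HSP90 set. Of 21 alternative fits, Hspa5 passed the threshold in 4 and Dnajb9 in 6, while the called HSP90 genes and St13 did in 14 to 17. Hspa5 encodes BiP, the ER HSP70 and sensor of unfolded proteins. Its level was 557, 514 and 640 CPM in the controls, 608, 642 and 758 with AOS, 831, 742 and 712 after busulfan and 587, 549 and 542 after busulfan with AOS. The 3 busulfan libraries lay above the 3 controls, while the 3 given both agents lay among the controls and below the AOS libraries. Against busulfan the log2 fold change was -0.45 ± 0.11 (adjusted p = 0.0493). For busulfan against control it was 0.42 ± 0.11 (adjusted p = 0.0778, not called by edgeR, and 0.00637 by DESeq2).

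Dnajb9 encodes ERdj4, a J protein that directs BiP to the stress sensor IRE1 and to degradation. It stood at 43.9, 37.8 and 47.7 CPM in the controls, 50.1, 50.9 and 55.2 with AOS, 61.6, 54.1 and 46.0 after busulfan and 38.9, 36.2 and 41.0 after busulfan with AOS. The AOS libraries were above the controls, and the group given both agents was below both the AOS and the busulfan libraries. The log2 fold change was -0.48 ± 0.11 against busulfan (adjusted p = 0.0488) and -0.43 ± 0.11 against AOS (adjusted p = 0.0508, not called, and 0.0135 by DESeq2).

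Of the 8 ER lumen members, 6 had negative and 2 positive estimates against busulfan. Without overlap, 4 lay lower and 2 higher, where 12.9% and 14.3% of all genes did. Hsp90b1, the ER HSP90 known as GRP94, stood at 704, 631 and 901 CPM in the controls, 806, 795 and 983 with AOS, 1128, 1048 and 1043 after busulfan and 926, 831 and 897 after busulfan with AOS. It had the smallest adjusted p of the 44 for busulfan against control, with a log2 fold change of 0.53 ± 0.13 (adjusted p = 0.0724, not called by edgeR, and 0.00332 by DESeq2). After both agents it lay below the busulfan libraries and overlapped the controls and AOS, with -0.28 ± 0.13 against busulfan. Dnajc10, an ER reductase with a J domain known as ERdj5, stood at 91.9, 107 and 101 CPM in the controls, 101, 110 and 108 with AOS, 100, 95.3 and 115 after busulfan and 122, 138 and 135 after busulfan with AOS. The 3 libraries given both agents were above the 9 others, opposite to Hspa5 and Dnajb9. Its log2 fold change was 0.34 ± 0.09 against busulfan (adjusted p = 0.0562) and 0.30 ± 0.09 against AOS (adjusted p = 0.0631), not called by edgeR and called in both by DESeq2.

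Of the remaining 4 ER lumen genes, Hspa13, an ER-associated HSP70-like protein, had 0.16 ± 0.09 against busulfan. Dnajb11, the J protein ERdj3, had -0.15 ± 0.09. Its busulfan libraries, at 111 to 122 CPM, lay above the controls, at 86.7 to 105 CPM. Dnajc1, which spans the ER membrane with its J domain in the lumen, had -0.06 ± 0.07, and Dnajc3, the ER protein P58IPK, had -0.12 ± 0.08. At the ER membrane, the J proteins Dnajb12 and Dnajb14 face the cytosol and help degrade membrane proteins. Dnajb12 stood at 32.3, 34.2 and 32.8 CPM in the controls, 30.5, 34.4 and 32.8 with AOS, 35.4, 39.6 and 37.0 after busulfan and 36.7, 42.3 and 38.0 after busulfan with AOS. Both groups given busulfan lay above both groups without it, and the log2 fold changes were 0.17 ± 0.08 against control and 0.26 ± 0.08 for both agents against AOS (adjusted p = 0.229 and 0.0675, neither called by edgeR). DESeq2 called the latter (adjusted p = 0.0482). Dnajb14 had 0.16 ± 0.10 in the latter comparison.

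The ER stress element, searched on both strands as CCAAT followed after any 9 bases by CCACG, was found in 3 of the 37 promoters, all of ER lumen genes, against 0.137% of all genes. They are printed in the same way, with the matches in capitals.
Hspa5, chr2:34771840-34772109, plus strand: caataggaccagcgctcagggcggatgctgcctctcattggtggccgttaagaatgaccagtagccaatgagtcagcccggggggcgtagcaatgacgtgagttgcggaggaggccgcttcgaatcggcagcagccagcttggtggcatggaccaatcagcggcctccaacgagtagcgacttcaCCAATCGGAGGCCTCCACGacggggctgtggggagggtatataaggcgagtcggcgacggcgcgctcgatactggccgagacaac
Hsp90b1, chr10:86705425-86705694, minus strand: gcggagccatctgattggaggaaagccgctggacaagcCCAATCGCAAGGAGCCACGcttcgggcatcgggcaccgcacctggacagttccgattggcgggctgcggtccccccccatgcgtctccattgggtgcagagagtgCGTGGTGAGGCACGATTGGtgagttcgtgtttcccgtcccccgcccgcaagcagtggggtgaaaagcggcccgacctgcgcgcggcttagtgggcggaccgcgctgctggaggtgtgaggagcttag
Dnajc3, chr14:118937682-118937951, plus strand: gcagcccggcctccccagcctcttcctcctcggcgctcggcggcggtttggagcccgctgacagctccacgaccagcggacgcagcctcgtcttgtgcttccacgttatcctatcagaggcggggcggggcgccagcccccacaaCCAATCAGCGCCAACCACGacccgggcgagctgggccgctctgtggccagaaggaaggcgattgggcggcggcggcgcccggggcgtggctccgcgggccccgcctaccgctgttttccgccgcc
Hsp90b1 has 2 matches, the second on the opposite strand. Against busulfan, Hspa5 was called lower and Hsp90b1 was not called, and Dnajc3 had an estimate of -0.12 with a 95% interval of -0.29 to 0.05. The 3 estimates were all negative, and differences between these genes were not tested. A further element of the unfolded protein response, TGACG directly followed by TGG, was in 0 of the 37 windows and in those of 0.714% of all genes. The ER lumen genes had 0 heat shock elements in 7 windows even with 1 letter allowed to differ.

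The interaction asks whether the busulfan difference was the same with AOS as without it. It was negative and called for Chordc1, 1 of the 44 genes, where 0.484% of all genes were called and 0.245% were called lower. The interaction for Chordc1 was -1.81 ± 0.32 on the log2 scale (adjusted p = 0.0473). Its mean went from 121 ± 16.9 CPM in controls to 195 ± 74.8 after busulfan, and from 153 ± 18.6 with AOS to 70.4 ± 5.41 after both (SD, n = 3). Fkbp4 and Stip1 had interactions of -1.36 ± 0.26 and -1.82 ± 0.36 (adjusted p = 0.0554 and 0.0568, not called). At an unadjusted p under 0.05, 17 of 44 interactions were negative and 0 positive, where 16.6% of all genes passed in either direction. DESeq2 called 10 lower and 0 higher, where 2.17% and 2% of all genes were. The call for Chordc1 was lost in every fit that leaves out 1 library except that without busulfan 3, which called 7 members. It was also lost without control 1 and AOS 2 together (adjusted p = 0.150).

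The busulfan contrasts without and with AOS use separate libraries. In 24 of the 44 genes the estimate was positive for busulfan against control and negative for both agents against AOS, against 19.7% of all genes. It was positive in both for 16, negative in both for 3, and negative then positive for 1, against 29%, 30.2% and 21% of all genes. In the scatter of the contrasts Stip1 and Chordc1 lay farthest along this diagonal, with interactions of -1.82 and -1.81, and Cct3 was nearer the centre at -0.55. Cdc37 was the HSP90 set member close to the centre, at -0.15.

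**Figure D4:**
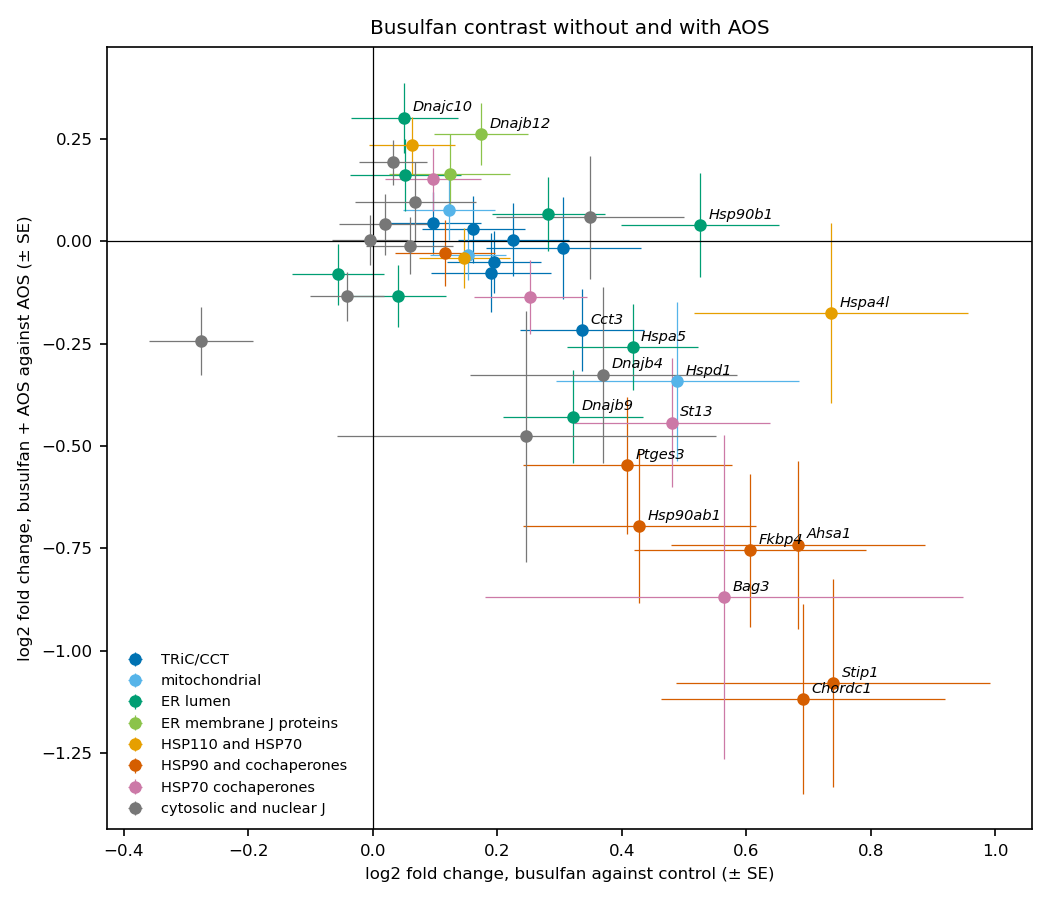
Log2 fold change of the 44 genes for busulfan against control (horizontal) and for busulfan with AOS against AOS (vertical), with SE bars, coloured by role. Of the 44, 24 lie at lower right, among them Stip1 and Chordc1 at the far end, while Dnajc10 and Dnajb12 lie above 0 on both axes.

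Set beside the controls, which the tests above did not do, the group given both agents had 9 members whose 3 libraries all lay below the 3 controls and 5 whose libraries all lay above, against 12.2% and 10.8% of all genes. Those below were Hspd1, Hsp90ab1, Ahsa1, Stip1, Chordc1, Fkbp4, Ptges3, Bag3 and St13. Those above were Hspa13, Dnajc10, Dnajb12, Cdc37 and Dnajc8. Dnajb9 and Hspa5, though called against busulfan, overlapped the control values.

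The neighbouring pathways were read from lists of other genes. Of 10 heat-inducible chaperones, 7 fell after both agents against busulfan, with a median log2 fold change of -1.88, and 4 fell against AOS. Dnaja1, a J protein of cytosolic HSP70, went from 670 ± 296 CPM after busulfan to 156 ± 11.7 after both, and Hspb1, a small heat shock protein, from 20.9 ± 9.35 to 4.57 ± 0.607 (adjusted p = 0.00988 for each). Of 17 other HSP90 and HSP70 partners, edgeR called 0 lower and 1 higher against busulfan and DESeq2 1 each way. The gene that rose was Rpap3, a subunit of an HSP90 cochaperone complex, at 0.39 ± 0.09 (adjusted p = 0.0426). In that list the smallest p after Rpap3 was for Ppid, a cyclophilin that binds HSP90, at -0.29 ± 0.09 (adjusted p = 0.0921). Of 13 prefoldin and chaperonin cofactors, 0 were called by edgeR against busulfan, where DESeq2 called 1 lower, and 1 rose against AOS, the tubulin cofactor Tbcd at 0.35 ± 0.09 (adjusted p = 0.0444). Against busulfan the smallest p values in that list were those of Cct6a, given above, and of the tubulin cofactor Tbce at 0.30 ± 0.11 (adjusted p = 0.142).

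Of 21 other ER folding and unfolded protein response genes, 1 fell in each comparison of both agents with a single agent. This was Herpud1, a part of the ER degradation machinery, which went from 123 ± 13.0 CPM after busulfan and 113 ± 9.89 with AOS to 84.7 ± 10.3 after both (adjusted p = 0.0263 and 0.0457). Against busulfan, 17 of the 21 estimates were negative, 11 were lower at an unadjusted p under 0.05, and 12 lay lower without overlap. Of all genes, 21.2% passed that p in either direction and 12.9% lay lower. DESeq2 called 6 of the 21 lower there, where it called 4.03% of all genes lower. For busulfan against control, 0 of the 21 were called by edgeR, 12 were higher at an unadjusted p under 0.05 and DESeq2 called 10 higher. Of all genes, 20.6% had an unadjusted p under 0.05 there in either direction. In 12 of the 21 the 3 busulfan libraries lay above the 3 controls, against 11% of all genes. Manf, a secreted ER stress protein, had 0.55 ± 0.12 there, and P4hb, a protein disulfide isomerase, had 0.29 ± 0.06 (adjusted p = 0.0586 for each). For the interaction, 12 of the 21 were negative at an unadjusted p under 0.05, where 16.6% of all genes passed in either direction. EdgeR called 1 and DESeq2 7 of these interactions lower, where they called 0.245% and 2.17% of all genes lower. Of 7 heat shock factors and regulators, Hsf1, which encodes heat shock factor 1, was the called gene. It went from 61.1 ± 2.41 CPM with AOS to 44.8 ± 3.68 after both (log2 fold change -0.45 ± 0.09, adjusted p = 0.0226), and against busulfan it had -0.27 ± 0.09 (adjusted p = 0.122, not called).

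Libraries within a group differed in the same genes. Control 3 was the highest of its group in 34 of the 44 members, where 34.4% of all genes were highest there, and busulfan 1 in 29 of 44, where 32.8% of all genes were. AOS 3 was the highest in 25 and busulfan with AOS 1 in 26, where 32.4% and 35.2% of all genes were. In the HSP90 set busulfan 1 was the highest of its group in 7 of 7, and in the heat-inducible list in 10 of 10. The median level of the HSP90 set, centred over the libraries, was 0.92, 0.44 and 0.07 in the 3 busulfan libraries and between -0.56 and -0.54 after both agents. The heat-inducible list stood at 1.23, 0.45 and 0.05, and between -1.16 and -1.01.

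**Figure D5:**
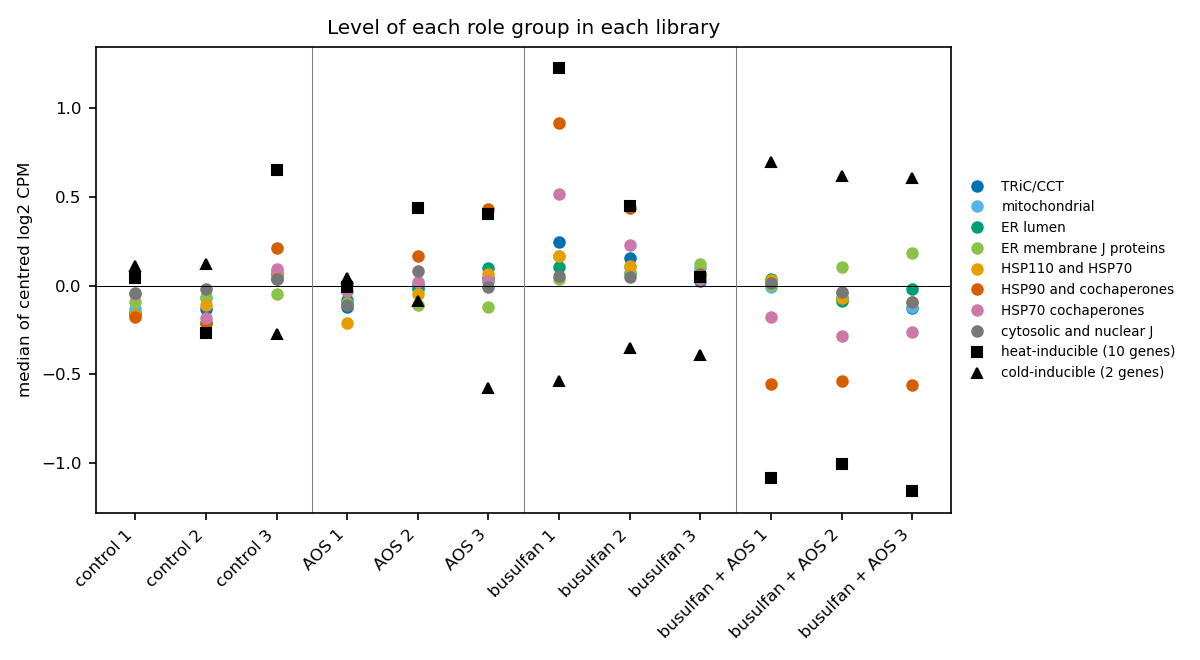
Median over its genes of centred log2 CPM for each role group (circles), the heat-inducible list (squares) and the cold-inducible pair Cirbp and Rbm3 (triangles) in each library. The HSP90 set and the heat-inducible list are lowest in the 3 libraries given both agents, where the cold-inducible pair is highest.

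Other values moved with these groups. The cold-inducible RNA-binding protein genes Cirbp and Rbm3 rose after both agents against busulfan, Cirbp from 22.0 ± 2.61 to 65.3 ± 1.28 CPM and Rbm3 from 434 ± 10.2 to 651 ± 37.6 CPM (adjusted p = 0.00824 and 0.0482). Against AOS both genes lay higher without overlap, with 1 called by edgeR (adjusted p = 0.0166) and 2 by DESeq2. Both interactions were positive, with 1 called by edgeR (adjusted p = 0.0331) and 2 by DESeq2. The part of Cirbp and Rbm3 in the chaperone result was not tested. The 5 neutrophil markers summed to 246 to 477 CPM in the controls and 389 to 586 CPM with AOS. They summed to 748 to 4522 CPM after busulfan and 346 to 1019 CPM after both agents, and 0 of 5 were at 0 in any library. For busulfan against control all 5 lay higher without overlap, with 2 called by edgeR and 5 by DESeq2. Against busulfan all 5 were lower after both agents at an unadjusted p under 0.05, with overlap, 0 called by edgeR and 2 by DESeq2. Within the busulfan group busulfan 3 was the highest for neutrophil markers and the lowest for the HSP90 set. The 5 plasma cell markers summed to 957 to 1133 CPM after busulfan and 1019 to 1108 CPM after both. All 5 had positive estimates against busulfan, and 1 rose, Prdm1 at 0.65 ± 0.10 (adjusted p = 0.0144). They summed to 531 to 1122 CPM in the controls and 633 to 706 CPM with AOS. For both agents against AOS all 5 plasma cell markers also had positive estimates, and 4 lay higher without overlap. In that comparison 3 had an unadjusted p under 0.05, edgeR called 1 higher (adjusted p = 0.0122) and DESeq2 called 2. The 7 pancreatic markers summed to 74 to 931 CPM after both agents, below the AOS libraries, and their part in the comparisons with AOS was not tested. The 5 hepatocyte markers summed to 7.01 to 14.2 CPM after both agents, against 26.0 to 110 CPM after busulfan, 38.9 to 162 CPM with AOS and 32.1 to 291 CPM in the controls. Against AOS all 5 lay lower without overlap and 3 fell (Alb, Apoa2 and Ttr), and against busulfan 3 lay lower without overlap, with 0 called by edgeR, 3 at an unadjusted p under 0.05 and 3 called by DESeq2. The 5 B cell markers had negative estimates for busulfan against control, 0 of them called by edgeR, 5 at an unadjusted p under 0.05 and 2 called by DESeq2. For both agents against AOS all 5 lay lower without overlap and had an unadjusted p under 0.05. EdgeR called 1 of these 5 markers lower there (adjusted p = 0.0459), and DESeq2 called 4. They summed to 2074 to 2700.5 CPM in the controls, 2557 to 2975 CPM with AOS, 1525 to 2126 CPM after busulfan and 1746 to 2193 CPM after both. The 5 dividing cell markers all lay higher after both agents than with AOS, at 2180.5 to 3314 against 1388 to 2050.5 CPM summed, and Cdc20 rose. They summed to 2305 to 2917 CPM after busulfan. The part of these cell types in the chaperone results was not tested. In whole spleen RNA, fewer cells of a type and less RNA per cell cannot be told apart.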

How the data were processed

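The authors deposited a table of 19376 genes with expected counts and a normalised value per gene and library. The normalised values that the authors deposited were read as FPKM, because count over value followed library totals to within 0.338% over 1227 genes. Per the submitters' processing notes the genome build was mm10. Aligner, counter and strand setting were not given in the sources used here. Of the 44 genes, 31 had whole counts in every library and 13 some fractional ones, so reads shared with near-identical or overlapping genes may have been split, and those 13 are uncertain in that respect. Among them are the called genes Stip1 and St13. The others are Hspd1, Hspa4l, Cct2, Cct4, Cct8, Tcp1, Dnajc1, Dnajb14, Dnajb6, Dnajc5 and Dnajc9.

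Expected counts were rounded and fitted in edgeR 4.0.16 (R 4.3.3; filterByExpr, TMM, glmQLFit, glmQLFTest, two-sided) with a mean per group over 12 libraries, leaving 8 residual degrees of freedom and a common coefficient of variation of 18.9%. The fits were tested on simulated data. Alternatives used DESeq2 1.42.0 and limma 3.58.1 (limma-trend on log2(FPKM + 1)). A zero count allows up to 3 counts, 0.185 to 0.199 CPM, and such limits cover counting error only. Replicate libraries differed by a chi-square of 15.9 to 72.7 per degree of freedom, well above sampling noise, so none was a copy. A further 8 columns were not used. Members and lists were chosen with earlier results of these data known. Values in every library are given for each called member and for the member with the smallest p of each role group without one, and lists by counts and their 2 genes with the smallest p. Bag3, Dnajc7, Dnajc10 and Hsp90b1 were added after their values were seen. Promoters came from RefSeq (GRCm38.p6). Figures used matplotlib 3.10.9.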

Additional observations from a re-analysis of the deposited data

Results flagged for a closer look

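The estimates of the busulfan difference of Chordc1 went in opposite directions without and with AOS. The test of how they differ passed the threshold (interaction -1.81 ± 0.32 on the log2 scale, edgeR adjusted p = 0.0473). It was flagged because the effects of busulfan in 2 groups differed by a test of the difference itself. In busulfan 3 the level was 122 CPM, within the range of the controls. The rise of Chordc1 for busulfan against control was not called by edgeR and was called by DESeq2 (adjusted p = 0.0396). Of 20 alternative fits, the interaction passed the threshold in 5, and its adjusted p reached 0.150.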

How the results depend on the processing

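The 13 fold changes called here kept their direction in all 272 alternative fits and passed the threshold in 157 of them. Counts of called members moved more. Taking first busulfan against control, then both agents against AOS, both agents against busulfan and the interaction, the main counts were 0, 3, 9 and 1, and DESeq2 gave 10, 12, 16 and 10. AOS against control gave 0 in every alternative. For busulfan with AOS against AOS, limma-trend on log2(FPKM + 1) and on log2(FPKM + 0.1) each gave 5, the stricter filter 5, the fit to only the 6 libraries 7, and the fit without control 1 and AOS 2 gave 0. For busulfan with AOS against busulfan, the 6-library fit gave 0 and the fit without control 1 and AOS 2 gave 3. For the interaction, the stricter filter gave 3, while both limma-trend fits and the fit without control 1 and AOS 2 gave 0. Leaving out 1 library gave 0 to 1 for busulfan against control, 0 to 7 for both agents against AOS, 0 to 12 for both agents against busulfan and 0 to 7 for the interaction. Against AOS the count was 0 without any AOS or any busulfan with AOS library, 1 without control 1 or busulfan 2, 5 without control 3, 6 without busulfan 1 and 7 without busulfan 3. The single call for busulfan against control came without control 3. RLE scaling and the fit without a filter gave 8 and 7 against busulfan. The cause of these shifts was not tested. A fit with fewer libraries has fewer degrees of freedom by construction.

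With the replicate number as a block, the counts were 0, 3, 5 and 0. Same-numbered libraries correlated between -0.0851 and 0.277 in their deviations from group means, over 0.1 in 6 of 18 pairs, and 5 of 12 libraries correlated best with their own number, so the numbers were not taken to pair the samples. With 3 libraries a group, differences may go undetected at this depth and spread, both under 1.5-fold and above it. Bag3, with a log2 fold change of -1.53 against busulfan, was not called by edgeR.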
